A study of Mus musculus with 8 samples.

Results

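T cell receptor alpha chains that used a V segment of the TRAV16, TRAV17, TRAV19 or TRAV21 families were studied in single brain immune cells of mice with traumatic brain injury (TBI). Of 2298 cells with a sequenced alpha chain, 288 carried such a chain, and they fell into 118 of 1377 clonotypes. The chains were chosen by the V gene call deposited for each assembled chain, and 6 segments were found: TRAV16, TRAV16N, TRAV16D-DV11, TRAV17, TRAV19 and TRAV21-DV12. The families were grouped with their J partners and their largest clones already known from these data, so J positions and clone sizes are given as a description, with no test.

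The 4 groups were YTBI_Isotype and YTBI_aCD49d in young mice and ATBI_Isotype and ATBI_aCD49d in aged mice, each with a single TCR library. Each was made from CD45+ cells sorted from the brains of 2 pooled B6 mice, collected 2 months after a controlled cortical impact. Young mice (YTBI) were injured at 13 to 15 weeks of age and aged mice (ATBI) at 80 to 82 weeks, and all received either 300 µg of aCD49d Ab (clone PS/2), which blocks the alpha 4 integrin that lymphocytes use to enter the brain, or its isotype control, starting shortly after the injury and repeated every 2 weeks. The pooled mice cannot be told apart within a library, and CD4+ and CD8+ cells were not separated, since gene expression data were not analysed here.

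The alpha chain of the T cell receptor is made in the thymus by joining a TRAV segment to a TRAJ segment. The TRAJ segments lie in an array between the TRAV segments and the constant gene Trac, and their numbers fall along the array, so that a high TRAJ number lies at the end nearest the V segments. The locus can rearrange more than once on the same chromosome, each time joining a V segment farther out to a J segment farther in, and for this reason V segments close to the array are known to be joined mostly to high TRAJ numbers. In B6 mice a large block of TRAV segments is duplicated, and the extra copies carry an N or a D in their names.

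Of the 6 segments, 4 lay near the J array and 2 did not. On mm10 (GRCm38) chromosome 14, all on the plus strand, TRAV21-DV12 was annotated at chr14:53875984-53876752, 278 kb before Traj61, the first J segment. TRAV19 was at chr14:53845234-53845827 (309 kb), TRAV17 at chr14:53806639-53807115 (348 kb) and TRAV16 at chr14:53743104-53743705 (411 kb). Counted from the J array over 128 annotated TRAV segments, pseudogenes included, their ranks were 3, 5, 7 and 13. The copies TRAV16N, at chr14:53351028-53351621, and TRAV16D-DV11, at chr14:53047287-53047821, were 803 kb and 1107 kb away, at ranks 51 and 85. Calling the whole set J-proximal therefore goes against the annotation for these 2 copies, and they are described apart below.

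The germline sequences below show why the copies of TRAV16 cannot be distinguished by their CDR3. The CDR3 is the stretch across the V to J join that makes most of the contact with peptide, and its first bases come from the end of the V segment. Each sequence starts at the codon of the conserved cysteine and runs through the end of the V segment into the recombination signal, whose heptamer is in capitals.
TRAV16 (chr14:53743689-53743744): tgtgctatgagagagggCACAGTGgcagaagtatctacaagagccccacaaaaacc
TRAV16N (chr14:53351605-53351660): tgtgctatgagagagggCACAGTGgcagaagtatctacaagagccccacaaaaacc
TRAV16D-DV11 (chr14:53047805-53047860): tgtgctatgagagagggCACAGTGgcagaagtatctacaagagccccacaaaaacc
TRAV17 (chr14:53807102-53807154): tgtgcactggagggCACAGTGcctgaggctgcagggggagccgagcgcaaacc
TRAV19 (chr14:53845815-53845866): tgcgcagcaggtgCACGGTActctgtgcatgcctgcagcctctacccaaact
TRAV21-DV12 (chr14:53876737-53876791): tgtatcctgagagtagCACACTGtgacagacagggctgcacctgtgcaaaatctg
The 3 copies of TRAV16 were identical over this whole stretch. Their V ends gave 17 bases to the CDR3, against 14 for TRAV17, 13 for TRAV19 and 16 for TRAV21-DV12. The heptamer CACAGTG was present in TRAV17 and in every TRAV16 copy, while TRAV19 had CACGGTA and TRAV21-DV12 had CACACTG.

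The body of the V segment did separate the copies. Every chain called TRAV16 (50 chains), TRAV16N (134 chains) or TRAV16D-DV11 (16 chains) matched its own germline copy with 0 mismatches over the 273 bases compared. Chains called TRAV16 differed from TRAV16N by 4 bases and from TRAV16D-DV11 by 5, and chains called TRAV16N differed from TRAV16D-DV11 by 3. Counted from the first base of the V exon and with TRAV16 as the reference, A51G was particular to TRAV16N, G94A and A272G were particular to TRAV16D-DV11, and A193T, A194G and T251C were found in both copies. The chains called TRAV17 (57), TRAV19 (14) and TRAV21-DV12 (18) also had 0 mismatches to their germline segments, and differed from every segment of another family in the set by at least 162 bases.

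The depth of the libraries bears on how many alpha chains were seen. The files held 262 to 1123 cells and 4473 to 18415 unique molecular identifiers (UMIs, each marking 1 captured transcript) per library. An alpha chain was assembled in 67.6% of ATBI_Isotype cells and in 78.3 to 83.4% of the cells of each other library. The chains studied had a median of 4 UMIs in both young libraries, 2 in ATBI_Isotype and 3 in ATBI_aCD49d, and 19 of 49 rested on 1 UMI in ATBI_Isotype against 19 of 187 in ATBI_aCD49d. Only 1 cell barcode was present in more than 1 library. All intervals given are exact Clopper-Pearson 95% intervals that cover counting error only, and with 1 library per group no difference between groups could be tested.

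The share of cells with one of these chains was highest in ATBI_aCD49d. Of cells with an alpha chain, those of the set were 25 of 217 in YTBI_Isotype (11.5%, interval 7.60 to 16.5%), 28 of 452 in YTBI_aCD49d (6.19%, 4.16 to 8.83%), 49 of 692 in ATBI_Isotype (7.08%, 5.28 to 9.25%) and 186 of 937 in ATBI_aCD49d (19.9%, 17.3 to 22.6%). Cells of a clone are not independent, so these intervals do not compare the groups. Counted over deposited clonotypes, which divide some clones of ATBI_aCD49d, the shares were 24 of 193 (12.4%, 8.13 to 17.9%), 24 of 375 (6.40%, 4.14 to 9.37%), 24 of 343 (6.997%, 4.53 to 10.2%) and 46 of 466 (9.87%, 7.32 to 12.9%), and the intervals of the 2 aged libraries then overlapped. Without the largest of these clones, a TRAV16N clone described below, the share of cells in ATBI_aCD49d was 13.5% (11.3 to 15.9%). Without every cell of the same alpha rearrangement it was 12.3% (10.1 to 14.7%). Both values were close to the 11.5% of YTBI_Isotype and above the 7.08% of ATBI_Isotype and the 6.19% of YTBI_aCD49d. They still included the 47 cells of a TRAV17 and TRAJ33 rearrangement, 5.02% of the ATBI_aCD49d cells with an alpha chain. Clones were removed from ATBI_aCD49d only. ATBI_Isotype kept its largest rearrangement of the set, TRAV16 with TRAJ56, in 21 of its 49 cells.

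**Figure D1:**
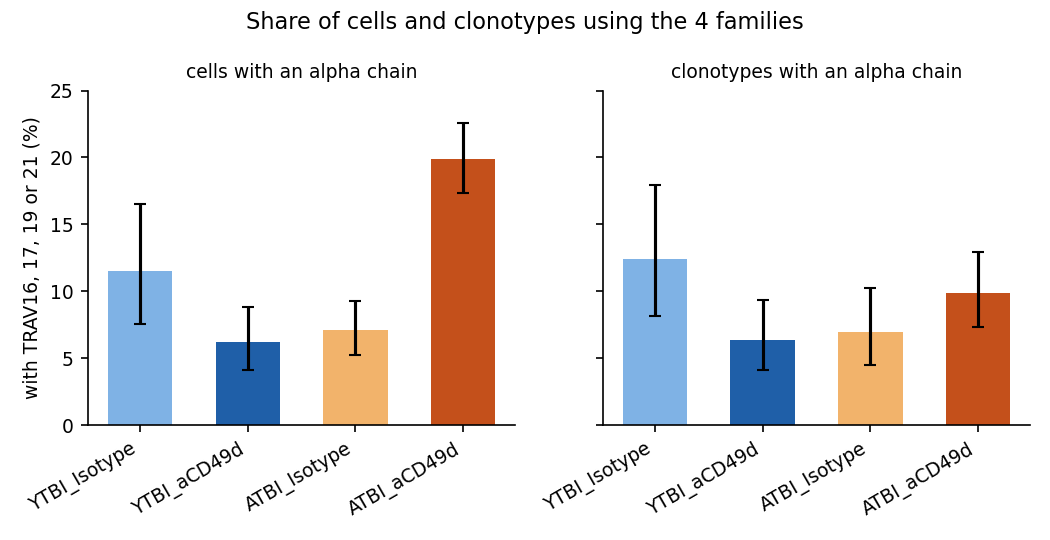
Percent of cells (left) and of clonotypes (right) with an alpha chain that used a TRAV16, TRAV17, TRAV19 or TRAV21 segment, in each library. Bars start at 0 and lines are exact 95% intervals of counting error. ATBI_aCD49d reached 19.9% of cells and 9.87% of clonotypes, while YTBI_Isotype had the highest share of clonotypes, 12.4%.

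Segment by segment, the excess of cells in ATBI_aCD49d sat in TRAV16N and TRAV17. TRAV16N was found in 4, 10, 10 and 110 cells of YTBI_Isotype, YTBI_aCD49d, ATBI_Isotype and ATBI_aCD49d, which was 1.84%, 2.21%, 1.45% and 11.7% of cells with an alpha chain. TRAV17 was in 2, 2, 2 and 51 cells, or 0.922%, 0.442%, 0.289% and 5.44%. TRAV16 was in 6, 6, 25 and 13 cells, and its highest share, 3.61%, was in ATBI_Isotype. The other 3 segments stayed at 7 cells or fewer in every library. TRAV16D-DV11 had 5, 3, 3 and 5 cells, TRAV21-DV12 had 2, 7, 5 and 4, and TRAV19 had 6, 0, 4 and 4, the 0 of 452 cells in YTBI_aCD49d allowing a share of up to 0.664% (3 counts of the total) or, by the exact interval, up to 0.813%. Over clonotypes TRAV16N was closer between libraries, with 4, 8, 10 and 20, or 2.07%, 2.13%, 2.92% and 4.29% of the clonotypes with an alpha chain.

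To weigh each joining event once, a rearrangement was defined as a distinct V gene, J gene and CDR3 nucleotide sequence within a library. The set held 114 of 1368 alpha rearrangements, 24 in each of 3 libraries and 42 in ATBI_aCD49d. Their J partners lay closer to the V segments than those of all other alpha chains in every library. In young mice the median TRAJ number was 41 against 27 with isotype and 42 against 28 with aCD49d Ab, and in aged mice 44 against 26 and 39.5 against 27, a difference of 14.6 ± 2.36 (SD over the 4 libraries). TRAJ41 or higher was used by 50%, 58.3%, 54.2% and 42.9% of the rearrangements in the same order, against 16.1%, 17.5%, 20.5% and 20.7% of the others.

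This pooled value hid a split between the segments near the array and the duplicated copies. TRAV16, TRAV17, TRAV19 and TRAV21-DV12 together had a median TRAJ number of 48 (isotype) and 52 (aCD49d Ab) in the young libraries, and of 53 and 49 in the aged ones. TRAV16N and TRAV16D-DV11 together had 17, 26, 23 and 22 in the same order. The near segments were thus above the other alpha chains in all 4 libraries and the 2 copies below them in all 4. Over the libraries, 50 of 60 rearrangements of the near segments used TRAJ41 or higher (83.3%, 71.5 to 91.7%), against 7 of 54 of the 2 copies (12.96%, 5.37 to 24.9%) and 240 of 1254 others (19.1%, 16.996 to 21.4%). At the other end, TRAJ20 or lower was used by 1 of 60 near rearrangements, by 19 of 54 of the copies (35.2%, 22.7 to 49.4%) and by 329 of 1254 others (26.2%), a share inside the interval of the copies.

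**Figure D2:**
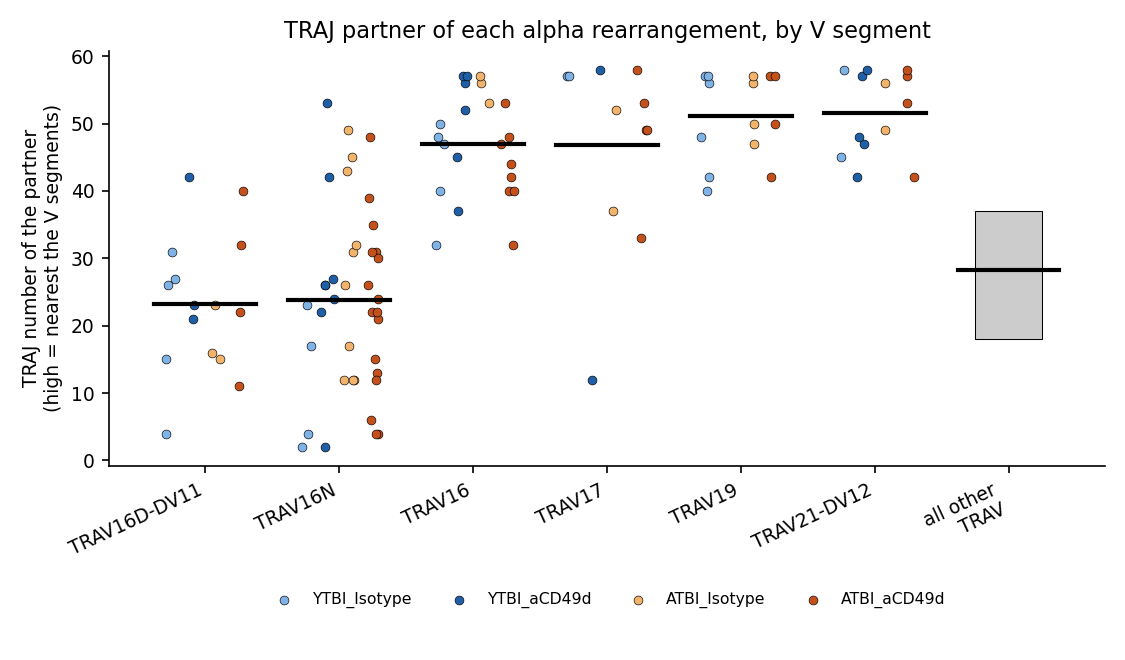
TRAJ number of the partner (vertical axis) for each distinct alpha rearrangement, by V segment and library (colours). Black lines are means over the rearrangements of all 4 libraries, and the grey box spans the quartiles of all other rearrangements, 18 to 37. TRAV16 stayed at TRAJ32 or above, and TRAV16N spread from TRAJ2 to TRAJ53.

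TRAV21-DV12, the nearest to the array, had the highest mean TRAJ number of the set, 51.5 ± 6.27 (SD over 13 rearrangements). Its partners were TRAJ45 and TRAJ58 in YTBI_Isotype, TRAJ42, TRAJ47, TRAJ48, TRAJ57 and TRAJ58 in YTBI_aCD49d, TRAJ49 and TRAJ56 in ATBI_Isotype, and TRAJ42, TRAJ53, TRAJ57 and TRAJ58 in ATBI_aCD49d. All 13 lay at TRAJ42 or above. TRAV19 followed with 51.1 ± 6.44 over 14 rearrangements, from TRAJ40 to TRAJ57, and was the segment with the fewest different partners, since 5 of its 14 rearrangements used TRAJ57, in 3 libraries.

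TRAV16 and TRAV17 had means of 47.0 ± 7.88 (22 rearrangements) and 46.8 ± 14.3 (11 rearrangements). The means of the 4 near segments differed by less than the SD of single rearrangements, and whether they differ was not tested. The partners of TRAV16 reached further into the array than those of TRAV19 and TRAV21-DV12, down to TRAJ32, once in each of 2 libraries. The TRAV17 partners were TRAJ57 in both rearrangements of YTBI_Isotype, TRAJ12 and TRAJ58 in YTBI_aCD49d, TRAJ37 and TRAJ52 in ATBI_Isotype, and TRAJ33, TRAJ49 (in 2 rearrangements), TRAJ53 and TRAJ58 in ATBI_aCD49d. The TRAJ12 join stood alone below TRAJ32 among the 60 rearrangements of the near segments.

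TRAV16N, with 39 rearrangements, had a mean of 23.8 ± 13.7 and used 24 different J segments. TRAV16D-DV11, with 15, had a mean of 23.2 ± 10.4 and used 13. The means of these 2 copies differed by less than the SD of single rearrangements. The range of TRAV16D-DV11, TRAJ4 to TRAJ42, lay inside that of TRAV16N. The 3 copies of TRAV16 shared their CDR3 start and recombination signal. Their mean TRAJ numbers were 47.0 at 411 kb, 23.8 at 803 kb and 23.2 at 1107 kb, and a cause of the difference was not tested. Over the 4 near segments pooled the commonest partner was TRAJ57, in 12 of 60 rearrangements (20%), against 0 of 54 for the 2 copies and 22 of 1254 (1.75%) for other alpha chains. It led alone in TRAV19, tied with TRAJ40 in TRAV16 (3 each) and with TRAJ49 and TRAJ58 in TRAV17 (2 each), and came after TRAJ58 in TRAV21-DV12 (2 against 3). For the 3 TRAV16 copies the commonest partners were TRAJ26, with 5 rearrangements, and TRAJ4, TRAJ12, TRAJ22, TRAJ31, TRAJ32 and TRAJ40, with 4 each. Of these, TRAJ4, TRAJ22, TRAJ26 and TRAJ31 were joined only to the duplicated copies within the set. TRAV17, TRAV19 and TRAV21-DV12 used TRAJ57 in 9 rearrangements, TRAJ58 in 5, TRAJ42 in 4, and TRAJ49 and TRAJ56 in 3 each.

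Among 73 V segments with at least 5 rearrangements, the near segments had rank 2 (TRAV21-DV12), 3 (TRAV19), 5 (TRAV16) and 6 (TRAV17) by mean TRAJ number, and TRAV16N and TRAV16D-DV11 had ranks 50 and 53. The segments at ranks 1 and 4, TRAV3-4 (52 ± 5.87, 5 rearrangements) and TRAV14-3 (48 ± 9.82, 14 rearrangements), were 377 kb and 391 kb from Traj61, between TRAV17 and TRAV16. TRAV13-4-DV7, in the same stretch at 397 kb, had a mean of 32.7 ± 21.7 over 6 rearrangements. Across the 73 segments the distance to Traj61 and the mean TRAJ number had a Pearson correlation of -0.70 and a Spearman correlation of -0.71, and of -0.65 and -0.67 over the 67 segments outside the set. The segments share libraries and neighbouring positions and are not independent. TRAV11, the V segment of the invariant NKT receptor which is joined to TRAJ18, had a mean of 19.6 at 635 kb.

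**Figure D3:**
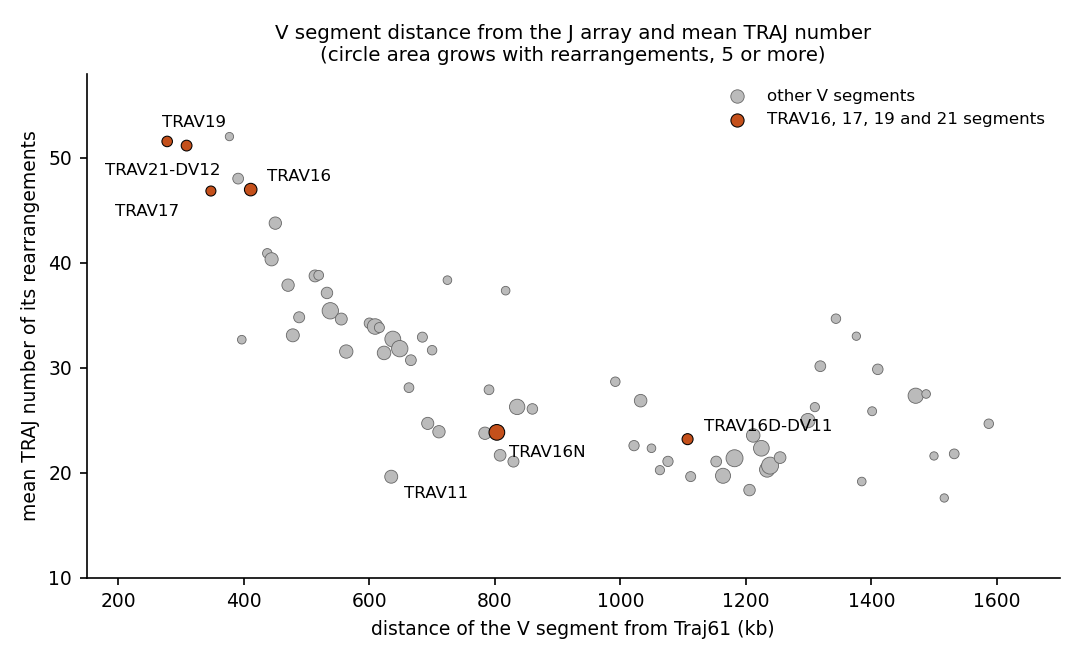
Mean TRAJ number of the rearrangements of each V segment (vertical axis) against its distance from Traj61 in kb, for 73 segments with at least 5 rearrangements. The orange points at 278 to 411 kb have means from 46.8 to 51.5, and TRAV16N (803 kb) and TRAV16D-DV11 (1107 kb) have means of 23.8 and 23.2.

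Mean TRAJ numbers of plain and duplicated copies are given for other families as a description. Rearrangements of TRAV14 had a mean TRAJ number of 40.3 ± 11.5 for the plain copies (46), 23.8 ± 8.08 for the N copy (21) and 22.3 ± 11.7 for the D copies (60). TRAV12 had 35.6 ± 13.02 for its plain copies (71) and 21.8 ± 11.1 for its D copies (94). TRAV9 had 31.9 ± 13.3, 26.1 ± 11.8 and 21.6 ± 13.5 for plain, N and D copies. Among the families given here, pooled by copy type, TRAV16 had the widest gap, 47.0 against 23.8 and 23.2. It has a single segment of each type, while the plain copies of the other families pool several. Taken singly, TRAV14-3 (48) lay further from TRAV14N-3 (23.8, 21 rearrangements) and TRAV14D-3-DV8 (21.1, 12 rearrangements) than the TRAV16 copies did from each other. The gaps between the copy types of TRAV9 (64, 13 and 44 rearrangements) were smaller than the SD of single rearrangements, which is not the error of a mean. The gaps were also below that SD in TRAV6 (33.3 ± 13.4 over 101, 25.04 ± 13.8 over 55 and 26.8 ± 15.7 over 11 rearrangements for plain, N and D copies). So were those of TRAV7 (28.3 ± 13.2 over 82, 20.8 ± 11.1 over 23 and 27.7 ± 12.5 over 69). The plain copies of TRAV6 and TRAV7 also include segments at the far end of the locus. In each of these families the plain copies had the highest mean, and whether the means differ was not tested. As whole families, TRAV5, TRAV10 and TRAV6 had the means nearest to the 36.9 ± 16.7 of the set, at 31.8 ± 14.96, 30.7 ± 15.5 and 30.2 ± 14.2, among families with at least 30 rearrangements.

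The alpha CDR3 of these rearrangements was on average longer than that of all others, by 0.607 to 1.47 residues in the 4 libraries. The mean length was 14.25 residues in YTBI_Isotype, where other chains had 13.6, and 15 in YTBI_aCD49d, where others had 13.5. In both aged libraries it was 14.6 against 13.5. The median was 14 residues in both sets of YTBI_Isotype. The difference was 1.08 ± 0.359 residues (SD over 4 libraries), with the set longer in 4 of 4. The exact two-sided sign-flip permutation test over the libraries gave p = 0.125. This is the smallest p that 4 libraries allow, so the test could not decide whether the lengths differ. The set was also chosen by V gene, which fixes how many germline V bases are available to the CDR3. These averaged 16.1 in the set and 13.5 in the other chains. The shared direction in the 4 libraries is therefore not independent of the choice of chains. Both parts of the set were longer than the other chains, since TRAV16, TRAV17, TRAV19 and TRAV21-DV12 exceeded them by 0.996 residues and TRAV16N and TRAV16D-DV11 by 1.22.

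Comparing each CDR3 with the germline V and J ends showed where the extra bases lay. On average, 13.8 bases matched the germline V end, 2.53 bases were in neither germline end and 27.5 bases matched the germline J end, against 11.2, 2.71 and 26.7 bases in the other chains. The V part was longest in the TRAV16 copies, at 14.9 bases in each of the 3, and it was 12.2 in TRAV17, 11.8 in TRAV19 and 11.2 in TRAV21-DV12. In the TRAV16 copies the longer CDR3 came with a longer V end. Their germline gives 17 bases, while the mean germline V end of the other chains gave 13.5. TRAV17, TRAV19 and TRAV21-DV12 taken alone were also longer than the other chains, by 0.696 residues on average over the libraries. Their J parts had 27.5, 27.4 and 28.8 bases, against 26.7 in the other chains. TRAV21-DV12 had the V part of an average chain and the most bases outside the germline ends, 4.08 on average. In 21 of 114 rearrangements (18.4%) no base fell outside the germline ends, and in 194 of the 1251 others that could be aligned (15.5%).

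**Figure D4:**
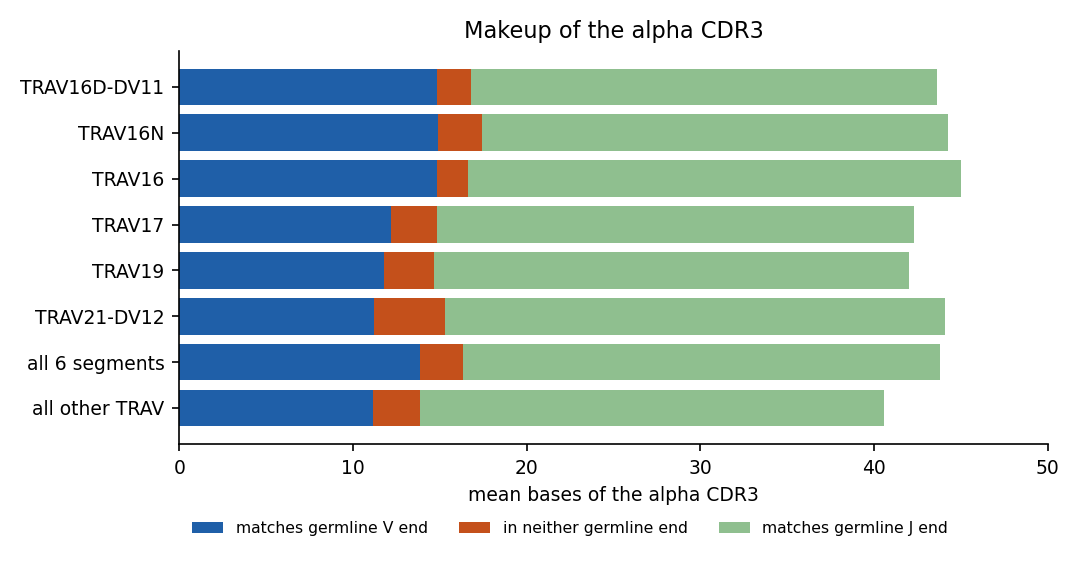
Mean number of alpha CDR3 bases that match the germline V end (blue), neither end (orange) or the germline J end (green), for each V segment, the set and all other alpha rearrangements over the 4 libraries. The 3 TRAV16 copies have the longest V part, 14.9 bases each, against 11.2 in other chains.

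Clones were read from the deposited clonotypes, which group cells by the CDR3 nucleotides of their chains, and a clonotype with at least 2 cells was called clonal. Clonal cells made up 2 of 25 cells of the set in YTBI_Isotype (8%, 0.984 to 26.0%), 6 of 28 in YTBI_aCD49d (21.4%, 8.30 to 40.95%), 33 of 49 in ATBI_Isotype (67.3%, 52.5 to 80.1%) and 152 of 186 in ATBI_aCD49d (81.7%, 75.4 to 87.0%). Other cells with an alpha chain were clonal in 19.8%, 25.7%, 61.6% and 53.0% of cases. The set was therefore below the other cells in the young libraries and above them in the aged ones, and the mean difference of 4.60 ± 17.6 percentage points (SD over 4 libraries) was smaller than its spread. It was 1.91 points without the 69-cell TRAV16N clonotype of ATBI_aCD49d and 1.08 without all 81 cells of that rearrangement. It was -3.44 points without the ATBI_aCD49d library, and -8.57 without the largest clone of the set in each library, a setting that left the large clones of the other cells in.

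The cells of the set in the aged libraries were dominated by 3 alpha rearrangements, shown here because they carry most of the cell counts. Bases in capitals match neither germline end.
TRAV16N with TRAJ13, ATBI_aCD49d, 81 cells: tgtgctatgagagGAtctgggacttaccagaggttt
TRAV17 with TRAJ33, ATBI_aCD49d, 47 cells: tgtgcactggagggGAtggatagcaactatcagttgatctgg
TRAV16 with TRAJ56, ATBI_Isotype, 21 cells: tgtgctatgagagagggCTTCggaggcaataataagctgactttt
The first 2 held 128 of the 186 cells of the set in ATBI_aCD49d (68.8%). Neither was found in another library, and TRAJ13 and TRAJ33 had no other rearrangement in the set.

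The TRAV16N and TRAJ13 rearrangement took 8.64% of the ATBI_aCD49d cells with an alpha chain (6.92 to 10.6%), with 1 to 13 UMIs per cell and a median of 4. In every one of its 81 cells it was paired with the same TRBV3 and TRBJ2-7 beta chain, whose CDR3 was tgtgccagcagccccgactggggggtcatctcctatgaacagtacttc. The deposited table divided these cells into a clonotype of 69 cells, 6.14% of the library, and another of 12 cells, 1.07%, although all deposited alpha and beta region sequences were identical between them. What divided them is not given in the sources used here. Counted as 1 clone, the set had 81 cells in its largest clone.

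The TRAV17 and TRAJ33 rearrangement was in 47 cells, 5.02% of the ATBI_aCD49d cells with an alpha chain (3.71 to 6.61%). A clonotype of 46 cells with a TRBV19 and TRBJ1-1 beta chain held 44 of them, 2 cells formed a clonotype with no beta chain, and the remaining cell also had a TRAV16 and TRAJ42 alpha chain and 2 beta chains with TRBV12-1 and TRBV26. TRAJ33 is the J segment of the invariant receptor of mucosal-associated T cells (MAIT), but that receptor uses TRAV1, and the deposited MAIT evidence for this clonotype rested on its beta V gene alone. Over the set, 17 clonotypes carried such MAIT evidence and 14 carried invariant NKT evidence, in 0 cases from the alpha chain, and 0 chains of the gamma delta receptor were in the files.

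The TRAV16 and TRAJ56 rearrangement of ATBI_Isotype belonged to a clonotype of 51 cells with a TRBV19 and TRBJ2-1 beta chain, of which 21 (41.2%) had an assembled alpha chain, at a median of 2 UMIs. The other 30 cells were assigned by the beta chain alone, so that counting cells with an alpha chain understates this clone. With every cell of a clonotype of the set counted over all cells of the library, the shares were 9.54% and 5.20% in the young libraries with isotype and aCD49d Ab, and 8.40% and 17.2% in the aged ones.

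The remaining clones were small. In YTBI_Isotype a single clonotype of the set had more than 1 cell, a TRAV16 and TRAJ47 chain with TRBV26 in 2 cells. In YTBI_aCD49d the clonal ones were a clonotype of 5 cells with TRAV16N and TRAJ2, 3 of them with the alpha chain, and one of 3 cells with TRAV21-DV12 and TRAJ57. ATBI_Isotype also had 2 clonotypes of 4 cells, with TRAV16 and TRAJ53 and with TRAV21-DV12 and TRAJ56. Of the clonotypes of the set, 23 of 24, 22 of 24, 16 of 24 and 34 of 46 were single cells in YTBI_Isotype, YTBI_aCD49d, ATBI_Isotype and ATBI_aCD49d. Clonotypes of 10 or more cells were found in the aged libraries, 1 in ATBI_Isotype and 3 in ATBI_aCD49d, and in neither young library.

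**Figure D5:**
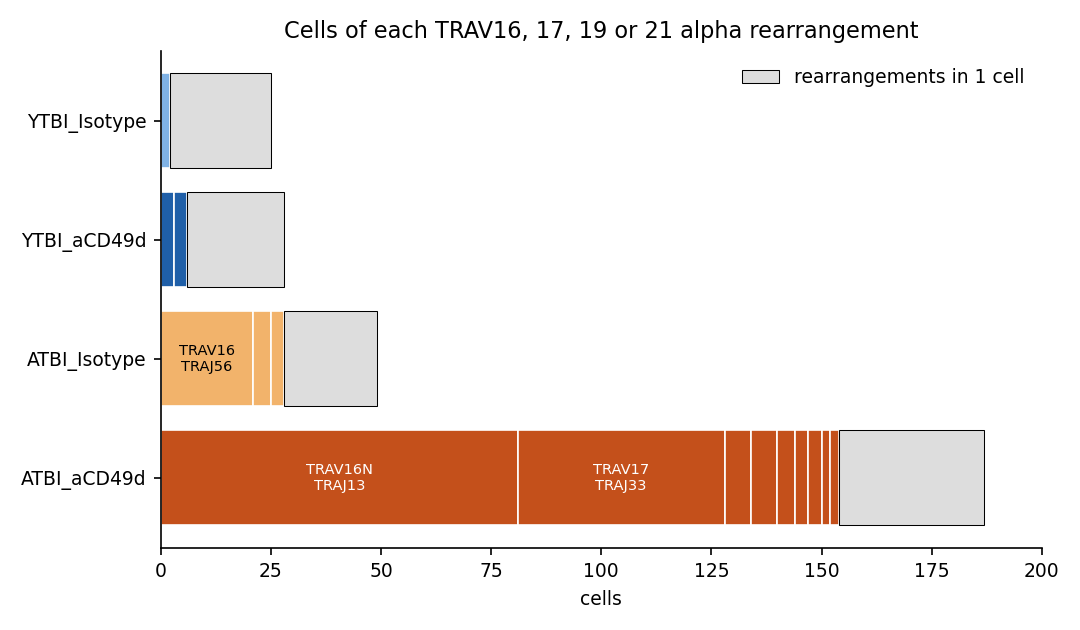
Cells of each alpha rearrangement that used a TRAV16, TRAV17, TRAV19 or TRAV21 segment, per library (horizontal axis, cells). Each coloured block is a rearrangement of 2 or more cells and the grey block holds those in 1 cell. TRAV16N with TRAJ13 (81 cells) and TRAV17 with TRAJ33 (47 cells) fill most of the ATBI_aCD49d bar, in which the cell with 2 chains of the set counts in both.

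Beta chains were not used to choose the cells. Of the 118 clonotypes of the set, 111 had a beta chain, and they used 20 of 22 TRBV gene calls. By deposited clonotypes TRBV3 was the most frequent partner, in 14 clonotypes (12.6%, 7.07 to 20.3%), against 87 of 1222 other clonotypes (7.12%, 5.74 to 8.71%), and the intervals overlapped. It was found with TRAV16N (5 clonotypes), TRAV21-DV12 (4), TRAV19 (3) and TRAV16D-DV11 (2), in 4, 0, 4 and 6 clonotypes of YTBI_Isotype, YTBI_aCD49d, ATBI_Isotype and ATBI_aCD49d. With clonotypes of the same alpha and beta CDR3 joined, the 14 were 12 pairs of chains, no more than the 12 deposited clonotypes of the next partner. No TRAV16 or TRAV17 clonotype, of 21 and 10 with a beta chain, used TRBV3.

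The next partners were the joint call TRBV12-2+TRBV13-2 (12 clonotypes, 10.8% against 13.01% of other clonotypes), TRBV16 (11, 9.91% against 5.48%), TRBV17 (9, 8.11% against 1.88%) and TRBV31 (9, 8.11% against 3.93%). TRBV17 was the partner whose interval in the set, 3.77 to 14.8%, lay above that of the other clonotypes, 1.197 to 2.81%, with 1, 2, 2 and 4 clonotypes in the 4 libraries. It was picked out of the 5 partners named after their values were seen. Of the TRBV16 clonotypes, 8 of 11 carried TRAV16N, which made up 41 of the 111 clonotypes with a beta chain. TRBJ2 segments, the J cluster farther along the beta locus, were used by 52.4% (29.8 to 74.3%), 78.3% (56.3 to 92.5%), 47.8% (26.8 to 69.4%) and 52.3% (36.7 to 67.5%) of clonotypes of the set with a beta chain, against 74.7%, 66.6%, 57.9% and 65.4% of the others, with no direction held in all 4 libraries.

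A second TRAV16N clone of ATBI_aCD49d also had a TRBV3 beta chain, and both beta CDR3s are shown with the bases that differ between them in capitals.
TRBV3 with TRBJ2-7, paired with TRAV16N and TRAJ13 in 81 cells: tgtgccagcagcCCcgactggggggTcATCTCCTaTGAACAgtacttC
TRBV3 with TRBJ2-4, paired with TRAV16N and TRAJ31 in 6 cells: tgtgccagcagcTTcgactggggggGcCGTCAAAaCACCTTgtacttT
The 2 sequences had the same length, 48 bases, and were identical at 31. Of these, 12 were the first bases, which all 14 TRBV3 clonotypes of the set shared, and 13 lay among the 24 middle bases. Germline bases of the beta chains were not marked, so the shared middle bases may also be germline. Their alpha CDR3s differed in J segment and in length, 12 and 13 residues. The alpha sequence of the smaller clone was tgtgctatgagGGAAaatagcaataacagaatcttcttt.

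Sequences of the set were rarely found in more than 1 library. Of 112 distinct alpha rearrangements, 2 were in 2 libraries (1.79%, 0.217 to 6.30%), against 12 of 1236 others (0.971%, 0.503 to 1.69%).
TRAV16 with TRAJ48, 1 cell of YTBI_Isotype and 3 of ATBI_aCD49d: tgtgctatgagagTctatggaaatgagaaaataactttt
TRAV16N with TRAJ31, 1 cell each of ATBI_Isotype and ATBI_aCD49d: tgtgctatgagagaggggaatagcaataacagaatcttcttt
The first had 1 base outside the germline ends and the second had 0.

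Some cells carried 2 alpha chains, as T cells can when both chromosomes have rearranged. This was the case for 14 of 288 cells of the set (4.86%, 2.68 to 8.02%) and for 107 of 2010 other cells (5.32%, 4.38 to 6.40%). The J partners of the 2 chains lay 2 to 22 numbers apart in the set, with a median of 7, and in 13 of 14 cells they were within 10, against 62 of 107 other cells with a median of 10. These are counts of cells, and cells of a clone repeat the same gap. In ATBI_aCD49d, 2 of the 14 cells were of the same clonotype, with TRAV16N and TRAJ15 beside TRAV5D-4 and TRAJ6. A YTBI_Isotype cell, for example, joined TRAV16 to TRAJ40 and TRAV4-4-DV10 to TRAJ34, and a YTBI_aCD49d cell joined TRAV16N to TRAJ26 and TRAV4-2 to TRAJ31. Of the 14 cells, 2 had 2 beta chains and may be droplets with more than 1 cell.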

How the data were processed

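TCR libraries of 4 groups (1 per group, 2 pooled mice each) were analysed. The authors sorted CD45+ brain cells, used the 10x 5' v2 immune profiling kit and processed TCR reads with Cell Ranger (7.2.0 in the submitters' processing notes) against mm10. The deposited contig tables hold, as counts, the UMIs and reads of each assembled chain, and the deposited clonotype tables give cells per clonotype as counts and as a fraction of the library. Only productive, full-length chains of barcodes called as cells are listed. No doublet caller was run, and cells with over 1 beta or over 2 alpha chains (6 of 288 of the set, 41 of 2010 others) were kept, and left out as an alternative. The authors' later restriction to cells typed as T cells was not repeated.

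Chains whose V gene began with TRAV16, TRAV17, TRAV19 or TRAV21 were taken. The members, lists and rules were chosen with earlier results of these data known. GENCODE vM21 (GRCm38, which is mm10) gave the segment positions, and germline bases came from RefSeq's chromosome 14 of that assembly. CDR3 bases were matched to the germline V end from the left and then to the J end from the right. The named clones were the 3 clonotypes of the set with most cells in each library, if of 2 cells or more, and any of 10 or more. The beta partners and J partners named were the 5 most frequent, with ties. TRBV17, the TRAV16N and TRAJ31 clone and the paired alpha chains were singled out after their values were seen. Differences between the set and all other chains were taken within each library, and that in CDR3 length was tested by an exact two-sided sign-flip permutation over the 4 libraries, which cannot pass 0.05. No test is reported for J position or clone sizes, known when the set was chosen. The sign-flip test was tried on simulated data. Coverage of the intervals was computed from binomial probabilities at a single setting, which treat cells as independent. Scripts ran in Python 3.11.15 with scipy 1.17.1 and pandas 2.3.3.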

Additional observations from a re-analysis of the deposited data

Results flagged for a closer look

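The change from isotype to aCD49d Ab had opposite signs in the young and the aged libraries for 5 of 7 values of the set. The other two rose at both ages, the clonal share by 13.4 points in the young and 14.4 in the aged libraries and the TRBJ2 share by 25.9 and 4.45 points. With 1 library per group none of these differences was tested, and each is a difference between 4 libraries. The share of cells fell by 5.33 percentage points from YTBI_Isotype to YTBI_aCD49d and rose by 12.8 from ATBI_Isotype to ATBI_aCD49d, a difference of 18.1 points. The ATBI_aCD49d share of 19.9% was 13.5% without the 69-cell TRAV16N clonotype and 12.3% without all 81 cells of that rearrangement, against 7.08% in ATBI_Isotype. No clone was removed from ATBI_Isotype, and the 47 cells of the TRAV17 and TRAJ33 rearrangement were still counted in ATBI_aCD49d. Of clonotypes, the share fell by 6.04 points with aCD49d Ab in the young libraries and rose by 2.87 points in the aged ones (8.91 points apart), with overlapping intervals within each age. Rearrangements with TRAJ41 or higher were 8.33 points more frequent in the young library with aCD49d Ab and 11.3 points less frequent in the aged one (a value of -19.6 for aged minus young). Accordingly the median TRAJ number was 1 higher and 4.5 lower (-5.5). The mean alpha CDR3 was 0.75 residues longer in the young library and fell by 0.0536 residues in the aged one (-0.804).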

How the results depend on the processing

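No paired analysis was possible because the groups, with 1 library each, share fewer than 2 replicate numbers, and the differences taken within libraries compare chains, not groups. Of 137 values recomputed under another setting, 27 moved by more than their error and 4 changed sign. The share of cells became 4.79% in ATBI_Isotype and 16.6% in ATBI_aCD49d over every barcode, 17.2% in ATBI_aCD49d with every cell of a clonotype of the set counted, and 13.5% and 12.3% in ATBI_aCD49d without the 69-cell TRAV16N clonotype or without all 81 cells. The share with TRAJ41 or higher in YTBI_Isotype, YTBI_aCD49d, ATBI_Isotype and ATBI_aCD49d was 80%, 84.6%, 90.9% and 81.0% for TRAV16, TRAV17, TRAV19 and TRAV21-DV12, 0%, 27.3%, 23.1% and 4.76% for TRAV16N and TRAV16D-DV11, and 90%, 85.7%, 87.5% and 92.3% for TRAV17, TRAV19 and TRAV21-DV12. For the 3 TRAV16 copies it was 21.4%, 47.1%, 37.5% and 20.7% in that order, and with each chain counted once it was 77.6% in ATBI_Isotype and 13.4% in ATBI_aCD49d, where large clones weigh. The median TRAJ difference was -5 for TRAV16N and TRAV16D-DV11 alone and from 3.75 to 25.1 under the other settings in TRAJ numbers, 13.5 to 15.3 of them without 1 library. The CDR3 difference stayed between 0.678 and 1.27 residues. With each chain counted once (0.678) and with medians (0.75) the sign-flip permutation test gave p = 0.25. The set was thus not longer in all 4 libraries under these 2 settings. The clonal share was 0% in YTBI_Isotype with a minimum of 3 cells or without its largest clone of the set, 42.9% in ATBI_Isotype and 70.9% in ATBI_aCD49d without theirs, and 67.6% in ATBI_aCD49d without all 81 cells. The clonal difference was -3.25 points with alpha rearrangements as clonotypes, -8.57 without the largest clone of the set in each library, and from -3.44 to 10.1 without 1 library. It was 2.38 points without invariant TRAV11 and TRAV1 cells in the comparison, and 7.74 with a minimum of 3 cells. The settings that split the set by distance or removed all 81 cells, the count of whole clonotypes, and those for TRBV3 and the mean TRAJ number of each segment, were chosen after seeing the data. The intervals rest on 24 rearrangements of the set in each of 3 libraries, and in ATBI_Isotype the alpha chain was missing in 32.4% of cells.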
